A study of Mus musculus with 8 samples.

Results

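Neutrophils store proteases, antimicrobial proteins, and metal-binding proteins in granules that are named by their contents, and 10 genes of these proteins were chosen by class from the 16536 genes of the table. Mpo, Elane, Prtn3, and Ctsg were taken as the azurophil class, Ltf, Lcn2, and Camp as the specific class, Mmp8 and Mmp9 as the gelatinase class, and Fcnb was kept apart. The genes were grouped by what their proteins are known for, and they were chosen with earlier results of these data known. Mmp8 is more often counted with the specific granules in textbooks, and the values with it in that class are given with the class means. All 10 genes passed the filter on low counts.

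The classes mark steps of neutrophil development in the bone marrow. Azurophil proteins are made first, in promyelocytes, specific granule proteins follow in myelocytes and metamyelocytes, and gelatinase granules form last, in band and segmented cells. The mRNA of a granule protein is abundant while its granule is being filled and falls afterwards, so that a mature neutrophil holds much myeloperoxidase protein with little Mpo mRNA. Transcription factors of the C/EBP family and PU.1 drive most of these genes in myeloid cells.

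The RNA came from Pthrp-mCherry mice, which carry a red fluorescent reporter for Pthlh, the gene of parathyroid hormone–related protein (PTHrP). Mice were injected i.p. once daily with the vehicle DMSO (4 mice) or with SAG (4 mice), an agonist of Smoothened that activates Hh signaling, on P30–P36 (1 day later in the methods), and were sacrificed at P38. The study as a whole used males and females, and the sex of the mice behind each library is not given in the sources used here. Cells of the growth plate region were sorted by FACS as mCherry+CD73+, and total RNA was made into 1 library per mouse. The methods name an antibody to CD73 and a viability dye for the sort, and no antibody to a marker of blood cells. In bulk RNA, more cells of a type and more RNA per cell cannot be told apart.

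Between 24971992 and 46593090 reads were counted per library, and 3 counts corresponded to between 0.0644 and 0.12 CPM (counts relative to library size, scaled between libraries by TMM), a floor that covers counting error only. Spearman's rho across genes was between 0.834 and 0.868 for DMSO replicate 4 with the other DMSO libraries, between 0.926 and 0.938 among the other DMSO libraries, and between 0.939 and 0.955 among the SAG libraries. DMSO replicate 4 also had the fewest counts and the fewest genes detected. The 8 chondrocyte markers summed to between 39830 and 87990 CPM in the DMSO libraries and between 15100 and 43300 CPM in the SAG libraries, so the labelled cartilage identity was present in every library. The sort genes Pthlh and Nt5e (CD73) summed to between 201.2 and 291.7 CPM with DMSO and between 171.2 and 203.9 CPM with SAG. Most of this sum was Nt5e, between 184.2 and 269.6 CPM with DMSO and between 148.7 and 174.0 CPM with SAG. Pthlh was between 14.9 and 22.1 CPM with DMSO and between 18.4 and 29.9 CPM with SAG. Neither gene passed the test used below (edgeR adjusted p = 0.186 for Nt5e and 0.606 for Pthlh).

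Because the classes are known for their C/EBP and PU.1 control, the 250 bases before the RefSeq start of each gene (GRCm38.p6) were read for the C/EBP consensus TTGCNNAA and the PU.1 core AGAGGAAG on both strands. No match of one motif overlapped a match of the other. The table held 9 of the 10 genes, all but Mmp9. The stretches that hold matches outside annotated exons are printed 5′ to 3′ on the strand of the gene, with the matches in capitals, for 1 or 2 genes of each class and for Fcnb.
Ltf, chr9:111019181-111019260, + strand: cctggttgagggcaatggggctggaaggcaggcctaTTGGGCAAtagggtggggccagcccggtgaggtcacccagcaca
Mmp8, chr9:7558374-7558428, + strand: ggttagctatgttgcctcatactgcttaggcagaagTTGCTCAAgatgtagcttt
Fcnb, chr2:28084958-28085128, − strand: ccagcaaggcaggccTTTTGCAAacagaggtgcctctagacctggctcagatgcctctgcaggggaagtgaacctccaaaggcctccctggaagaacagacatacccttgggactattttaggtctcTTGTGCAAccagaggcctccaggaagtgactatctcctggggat
Mpo, chr11:87793534-87793580, + strand: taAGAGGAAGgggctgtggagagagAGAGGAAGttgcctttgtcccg
Ctsg, chr14:56102748-56102824, − strand: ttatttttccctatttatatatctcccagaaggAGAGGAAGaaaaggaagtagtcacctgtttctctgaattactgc

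The capitals are C/EBP matches in Ltf, Mmp8, and Fcnb and PU.1 matches in Mpo and Ctsg. The C/EBP letters were found in 4 of the 9 windows (Ltf, Lcn2, Mmp8, and Fcnb, which held 2 matches), beside 9.56% of 32851 windows of all genes. The PU.1 letters were found in 2 of the 9 windows (Mpo with 2 matches, and Ctsg), beside 3.67% of all windows. The windows of Camp, Elane, and Prtn3 held neither motif in these letters. A match is a run of letters in this window and is given as a description of the sequence.

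Expression of 6 of the 10 granule genes was higher in SAG-treated mice and that of 0 was lower (edgeR's quasi-likelihood test, Benjamini-Hochberg adjusted p under 0.05 over 15421 genes). Over all tested genes 2.62% were higher and 0.266% were lower by the same rule. The 6 genes were the 3 of the specific class, both of the gelatinase class, and Fcnb, with log2 fold changes between 1.82 and 2.24. None of the 4 azurophil genes passed the test. DESeq2 and limma voom also called 6 granule genes higher and 0 lower, and 0 were lower at an unadjusted p under 0.05 in edgeR. In the same 6 genes every SAG library lay above every DMSO library, as it did in 7.9% of all tested genes. The median log2 fold change was 0.42 in the azurophil class, 2.17 in the specific class, and 2.10 in the gelatinase class, where the median over all genes was −0.08. The azurophil values rested on single libraries, since the 4 genes were between 0.42 and 1.56 without DMSO replicate 4 and between −0.78 and 0.13 without SAG replicate 1, and limma voom gave between 0.31 and 1.31. All 6 calls were also made without DMSO replicate 4 and SAG replicate 1, a pair left out after the values were seen, while 1 call was left without DMSO replicate 3 (Mmp9) and 3 without DMSO replicate 2 (Lcn2, Camp, and Mmp9).

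**Figure D1:**
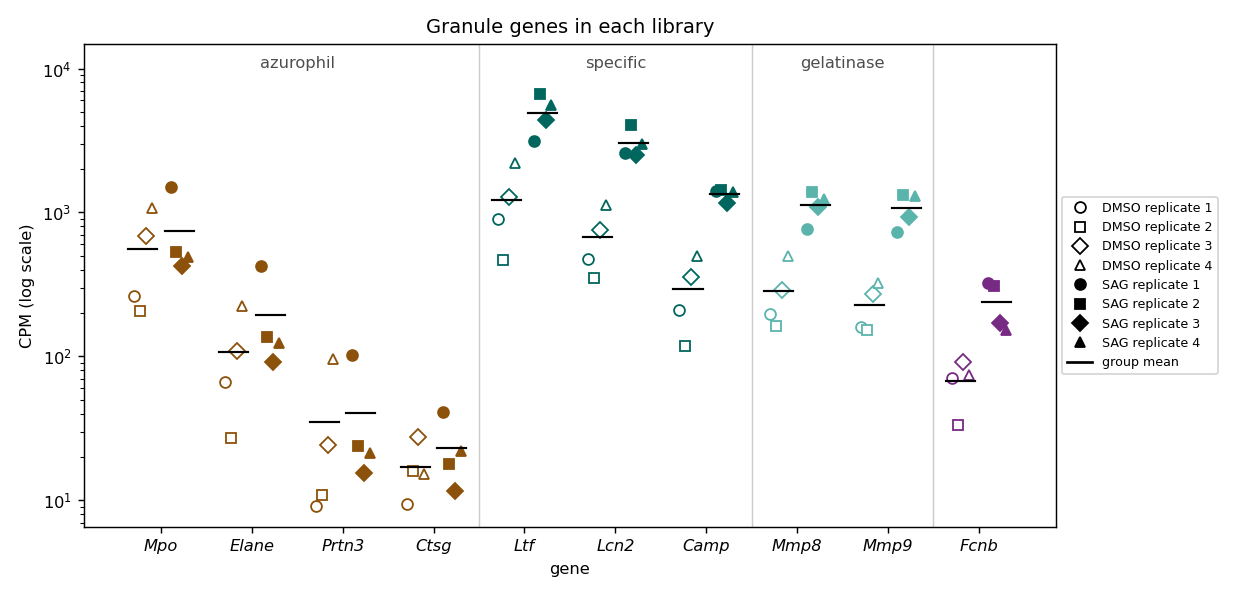
CPM of the 10 granule genes (x axis, grouped by class) in each of the 8 libraries on a log scale, with open symbols for DMSO, filled symbols for SAG, a symbol shape for each replicate number, and a line at each group mean. In the specific and gelatinase genes and Fcnb the filled symbols lie above all open ones, and in the 4 azurophil genes they overlap, with SAG replicate 1 highest.

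Among the azurophil genes, Mpo (ENSMUSG00000009350.13, chr11:87793581-87804413, + strand) encodes myeloperoxidase, which makes hypochlorous acid. Its level was 261.0, 207.0, 687.0, and 1079 CPM in DMSO replicates 1 to 4 and 1504, 534.4, 425.5, and 487.4 CPM in SAG replicates 1 to 4. The highest DMSO library, replicate 4, lay above 3 of the 4 SAG libraries. The group means were 558.5 ± 408.1 and 737.9 ± 512.9 CPM (SD, n = 4 each), and the log2 fold change was 0.40 (SE 0.54, edgeR adjusted p = 0.798). It was −0.21 without SAG replicate 1 and 0.97 without DMSO replicate 4.

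Elane (ENSMUSG00000020125.7, chr10:79886247-79888215, + strand) encodes neutrophil elastase, a serine protease. Its level was 66.8, 27.2, 108.6, and 225.0 CPM with DMSO and 427.5, 136.6, 90.9, and 123.9 CPM with SAG. The 2 groups overlapped, and the extreme libraries were the same as for Mpo. SAG against DMSO, the log2 fold change was 0.87 (SE 0.60, edgeR adjusted p = 0.551), and it was 0.13 without SAG replicate 1 and 1.56 without DMSO replicate 4.

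Prtn3 (ENSMUSG00000057729.12, chr10:79874476-79883174, + strand) encodes proteinase 3, a close relative of elastase whose gene lies next to Elane. Its level was 9.09, 10.9, 24.4, and 95.1 CPM with DMSO and 102.1, 23.9, 15.5, and 21.1 CPM with SAG. DMSO replicate 4 and SAG replicate 1 stood above the other 6 libraries, and in those 6 the groups overlapped too. The log2 fold change was 0.22 (SE 0.78, edgeR adjusted p = 0.935) and turned to −0.09, −0.07, and −0.78 without DMSO replicate 1, DMSO replicate 2, and SAG replicate 1, and it was 1.49 without DMSO replicate 4.

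Ctsg (ENSMUSG00000040314.2, chr14:56099881-56102574, − strand) encodes cathepsin G, another serine protease of these granules. Its level was 9.42, 15.9, 27.5, and 15.3 CPM with DMSO and 41.2, 17.8, 11.5, and 22.0 CPM with SAG. The groups overlapped, and here DMSO replicate 3 and not replicate 4 was the highest control. Ctsg had a log2 fold change of 0.44 (SE 0.44, edgeR adjusted p = 0.712), 0.01 without SAG replicate 1, and −0.01 without DMSO replicate 4 and SAG replicate 1.

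All 3 specific granule genes were higher in SAG-treated mice. Ltf (ENSMUSG00000032496.7, chr9:111019271-111042767, + strand) encodes lactoferrin, which binds iron. In DMSO replicates 1 to 4 it was at 902.4, 470.2, 1277, and 2194 CPM, and in SAG replicates 1 to 4 at 3160, 6658, 4405, and 5545 CPM. The lowest SAG library lay above the highest DMSO library. The means were 1211 ± 733.6 and 4942 ± 1503 CPM (SD, n = 4 each), a ratio of 4.08, and the log2 fold change was 2.03 (SE 0.42, edgeR adjusted p = 0.0263). With single mice left out its adjusted p was between 0.00194 and 0.105 and it was called in 2 of 8 fits, those without DMSO replicate 4 and without SAG replicate 1.

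Lcn2 (ENSMUSG00000026822.14, chr2:32384633-32388252, − strand) encodes lipocalin 2, which captures bacterial siderophores. Lcn2 was at 471.1, 349.2, 755.3, and 1130 CPM with DMSO and 2598, 4082, 2505, and 2970 CPM with SAG, with no overlap. Its log2 fold change was 2.17 (SE 0.35, edgeR adjusted p = 0.0112). It was called in 7 of the 8 fits with 1 mouse left out, and the adjusted p without DMSO replicate 3 was 0.0538.

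Camp (ENSMUSG00000038357.10, chr9:109847379-109849617, − strand) encodes cathelicidin, the precursor of an antimicrobial peptide. Camp was at 208.9, 118.0, 358.2, and 497.5 CPM with DMSO and 1417, 1441, 1154, and 1377 CPM with SAG. The SAG libraries lay close together, at 1347 ± 131.4 CPM (SD, n = 4), where the DMSO libraries were spread over 295.6 ± 167.1 CPM. The log2 fold change was 2.19 (SE 0.37, edgeR adjusted p = 0.0132), and Camp was called in 7 of 8 fits with 1 mouse left out, with an adjusted p of 0.0553 without DMSO replicate 3.

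In the gelatinase class, Mmp8 (ENSMUSG00000005800.3, chr9:7558456-7568485, + strand) encodes neutrophil collagenase. Its level was 197.2, 161.9, 287.1, and 494.5 CPM with DMSO and 765.6, 1383, 1092, and 1236 CPM with SAG, with no overlap. With SAG, Mmp8 had a log2 fold change of 1.97 (SE 0.34, edgeR adjusted p = 0.0136). It was called in 5 of 8 fits with 1 mouse left out, and in the other 3, without DMSO replicate 2, DMSO replicate 3, or SAG replicate 4, the adjusted p was between 0.054 and 0.0646.

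Mmp9 (ENSMUSG00000017737.2, chr2:164940780-164955850, + strand) encodes gelatinase B, which gives the granules their name and is also made by osteoclasts. Mmp9 was at 159.1, 151.9, 273.3, and 323.4 CPM with DMSO and 727.0, 1314, 933.5, and 1299 CPM with SAG. No SAG library came near the control range. Mmp9 had a log2 fold change of 2.24 (SE 0.30, edgeR adjusted p = 0.0102), and Mmp9 alone among the 10 genes was called in all 8 fits with 1 mouse left out. The 4 osteoclast markers tested, Acp5, Ctsk, Ocstamp, and Atp6v0d2, summed to between 43.0 and 96.9 CPM with DMSO and between 18.9 and 52.8 CPM with SAG, and 0 of them passed the test in either direction.

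Fcnb (ENSMUSG00000026835.15, chr2:28076378-28084885, − strand) encodes ficolin B, a lectin of the complement system made by myeloid cells of the marrow. Its level was 71.1, 33.5, 91.3, and 74.6 CPM with DMSO and 325.3, 308.0, 169.6, and 153.0 CPM with SAG. The groups did not overlap, and DMSO replicate 4, the highest control in 8 of the other 9 genes, was not the highest control here. The log2 fold change was 1.82 (SE 0.34, edgeR adjusted p = 0.0174), the smallest of the 6 calls. It was called in 5 of the 8 fits with 1 mouse left out, and in those without DMSO replicate 2, DMSO replicate 3, or SAG replicate 2 the adjusted p was between 0.0538 and 0.0608.

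**Figure D2:**
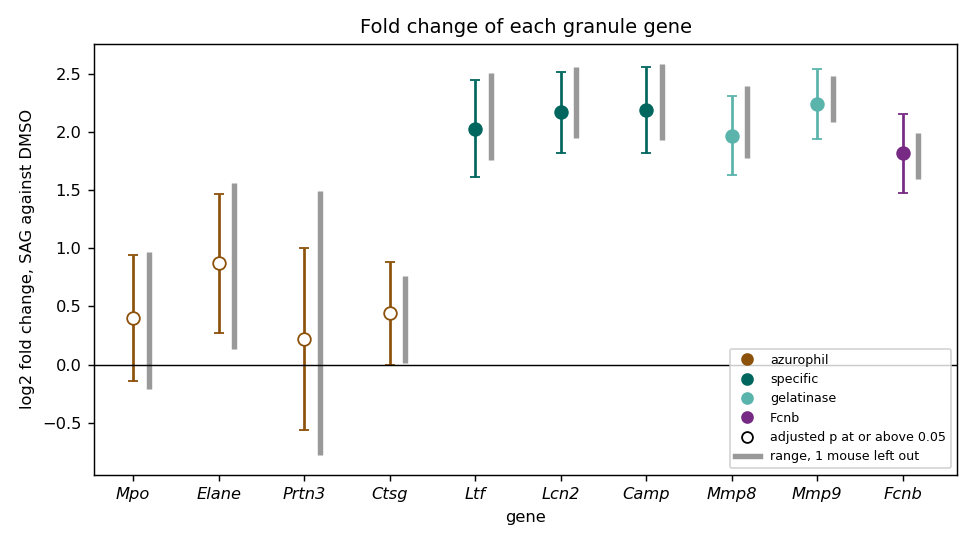
Log2 fold change, SAG against DMSO, of each granule gene from edgeR with all 8 libraries (points, open where the adjusted p was at or above 0.05; bars are ± 1 SE), and its range over the 8 fits with 1 mouse left out (grey). Specific and gelatinase genes and Fcnb lie between 1.82 and 2.24 with ranges from 1.6 upwards, and the azurophil genes lie between 0.22 and 0.87, with ranges that cross 0 for Mpo and Prtn3.

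As a summary with no test, the mean log2 CPM of each class was taken in every library. The specific class went from 9.10 ± 0.86 in the DMSO libraries to 11.38 ± 0.27 in the SAG libraries (SD, n = 4 each), a difference of 2.28. The gelatinase class went from 7.88 ± 0.62 to 10.06 ± 0.39, a difference of 2.17. For the azurophil class the means were 5.90 ± 1.02 and 6.48 ± 0.93, a difference of 0.58 with overlapping groups (0.13 without SAG replicate 1 and 0.98 without DMSO replicate 4), and for Fcnb they were 5.99 ± 0.63 and 7.82 ± 0.57. The azurophil class was highest of all libraries in SAG replicate 1, at 7.83, and next in DMSO replicate 4, at 7.10, where the other SAG libraries were at 6.22, 5.68, and 6.19. In the specific class SAG replicate 1 was the lowest of its group, at 11.15. Counting Mmp8 as a specific gene gave differences of 2.23 for the specific class and 2.27 for Mmp9 alone.

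Whether the classes differed from each other in their response was asked with ratios of raw counts within a library, which need no scaling between libraries. There were 2.10 counts of Ltf per count of Mpo in SAG replicate 1, and 12.5, 10.4, and 11.4 in SAG replicates 2 to 4. In DMSO replicates 1 to 4 there were 3.46, 2.27, 1.86, and 2.03. SAG replicate 1 lay within the DMSO range and the other 3 SAG libraries lay far above it. The mean log2 ratio was 1.22 ± 0.40 with DMSO and 2.90 ± 1.22 with SAG (SD, n = 4 each), a difference of 1.67 (exact 2-sided permutation test over 70 relabellings, p = 0.0857, adjusted over the 3 ratios p = 0.129).

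The ratio of Mmp9 to Mpo had the same form, with 0.610, 0.734, 0.398, and 0.2997 in DMSO replicates 1 to 4 and 0.483, 2.46, 2.19, and 2.67 in SAG replicates 1 to 4. Its mean log2 value differed by 1.76 (exact 2-sided permutation test, p = 0.0857, adjusted p = 0.129). With 4 mice a group this test cannot give a p under 0.0286. A difference between the azurophil gene and the later genes in their response was therefore not established with these 8 mice. Without SAG replicate 1 the 2 differences were 2.28 and 2.34, each with an exact permutation p = 0.0571, the smallest possible with 3 mice and 4 mice.

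The ratio of Ltf to Mmp9 was 5.67, 3.10, 4.67, and 6.78 with DMSO and 4.35, 5.07, 4.72, and 4.27 with SAG. The SAG libraries lay within the DMSO range and closer together. The mean log2 values were 2.28 ± 0.49 and 2.20 ± 0.11, a difference of −0.08 (exact 2-sided permutation test, p = 0.8, adjusted p = 0.8), and this difference was between −0.30 and 0.08 with single mice left out.

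The makeup of the granule mRNA was described as shares of counts. The 10 genes together took 0.236%, 0.156%, 0.393%, and 0.647% of all counts in DMSO replicates 1 to 4 and 1.12%, 1.55%, 1.08%, and 1.25% in SAG replicates 1 to 4. Of these granule counts, the azurophil class held 14.7%, 16.9%, 21.8%, and 23.1% with DMSO and 18.8%, 4.48%, 5.03%, and 4.95% with SAG. In 3 of the 4 SAG libraries the azurophil share lay far below every DMSO library, and in SAG replicate 1 it lay among them. The specific class held between 60.7% and 67.2% with DMSO and between 64.8% and 76.6% with SAG. The gelatinase class held between 13.4% and 20.3% with DMSO and between 13.5% and 19.2% with SAG, with overlap.

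**Figure D3:**
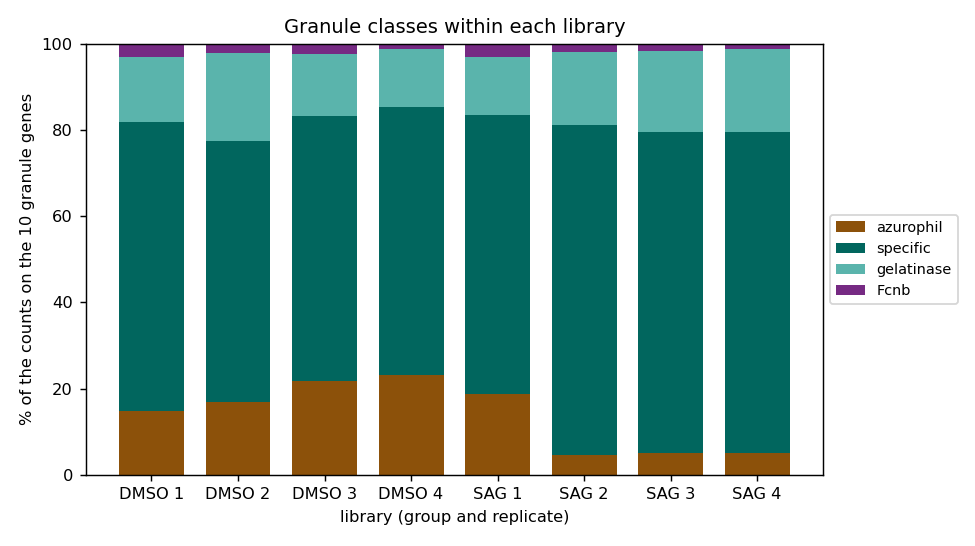
Share of the counts on the 10 granule genes that each class held (y axis, %, bars from 0 to 100) in each library (x axis). The azurophil share is between 14.7% and 23.1% in the DMSO libraries and in SAG replicate 1, and between 4.48% and 5.03% in SAG replicates 2 to 4.

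Markers of mature neutrophils moved with the specific and gelatinase genes. S100a9, which encodes a subunit of calprotectin and is among the most abundant neutrophil mRNAs, was between 1722 and 3457 CPM with DMSO and between 7207 and 12720 CPM with SAG (log2 fold change 2.00, SE 0.29, edgeR adjusted p = 0.0102). Of the 8 mature neutrophil markers 5 were higher (S100a8, S100a9, Retnlg, Cxcr2, and Csf3r) and 0 were lower, beside 2.62% and 0.266% of all tested genes. Ly6g, Mmp25, and Il1b had log2 fold changes of 2.23, 1.53, and 0.81. Their adjusted p was 0.116, 0.138, and 0.0877 in edgeR and 0.0137, 0.0317, and 0.0223 in DESeq2. The 8 markers had a median log2 fold change of 1.78. Their summed level was between 3318 and 6770 CPM with DMSO and between 13590 and 22250 CPM with SAG. Of the 6 markers of neutrophil progenitors and precursors (Kit, Cd34, Flt3, Ms4a3, Cebpe, and Gfi1) 0 passed the test in either direction in edgeR. Their sum was between 131.2 and 199.5 CPM with DMSO and between 176.2 and 366.8 CPM with SAG. Cebpe held the largest part of it, on average 72.9 of 157.1 CPM with DMSO and 164.3 of 255.7 CPM with SAG. Cd34 and Flt3 had log2 fold changes of −1.05 and −1.27, and Kit, Ms4a3, Cebpe, and Gfi1 had values between 0.65 and 1.17. Ms4a3, a gene of granulocyte-monocyte progenitors, was 6.16, 10.9, 16.8, and 14.7 CPM with DMSO and 45.3, 22.7, 13.8, and 7.62 CPM with SAG. SAG replicate 1 was the highest library for Ms4a3 and for Gfi1 (45.3 CPM). Kit and Cebpe were highest in SAG replicate 2 (47.6 and 244.4 CPM). Cd34 was highest in DMSO replicate 1 (71.3 CPM) and Flt3 in DMSO replicate 4 (16.5 CPM). The part of neutrophil number and stage in the values of the granule genes was not tested.

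Counts were therefore also set against S100a9 within each library, as a description. Per 100 counts of S100a9 there were 46.2 ± 15.8 of Ltf with DMSO and 49.2 ± 4.15 with SAG, 26.2 ± 5.47 and 30.9 ± 4.34 of Lcn2, and 11.3 ± 3.32 and 14.2 ± 3.81 of Camp (SD, n = 4 each). Mmp8 was at 11.1 ± 2.37 and 11.3 ± 1.16, and Fcnb at 2.81 ± 1.02 and 2.57 ± 1.37. In all 5 of these genes the groups overlapped and the means differed by less than the larger SD. Mmp9 was at 9.24, 8.46, 9.18, and 9.36 with DMSO and 10.1, 10.3, 11.1, and 11.2 with SAG. It was the 1 granule gene whose SAG libraries all stayed above the DMSO libraries on this scale. Over all genes 0.117% did so, a share that is low because S100a9 itself was higher with SAG. It does not say how often this occurs among genes that rose along with S100a9.

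The azurophil genes were lower than in any DMSO library on the S100a9 scale in 3 of the 4 SAG libraries. S100a9 itself was higher with SAG, and in CPM the same 3 libraries lay inside the DMSO range in all 4 genes. The share of all genes that lay lower in this way on the S100a9 scale was not determined. Mpo was at 15.2, 11.5, 23.1, and 31.2 counts per 100 of S100a9 in DMSO replicates 1 to 4 and at 20.9, 4.202, 5.08, and 4.21 in SAG replicates 1 to 4. Elane was at 3.88, 1.51, 3.65, and 6.51 with DMSO and at 5.93, 1.07, 1.09, and 1.07 with SAG. Prtn3 was between 0.528 and 2.75 with DMSO, at 1.42 in SAG replicate 1, and between 0.183 and 0.188 in the other SAG libraries, and Ctsg was between 0.441 and 0.925 with DMSO, at 0.572 in SAG replicate 1, and between 0.138 and 0.190 in the others. SAG replicate 1 lay inside the DMSO range in all 4 genes.

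**Figure D4:**
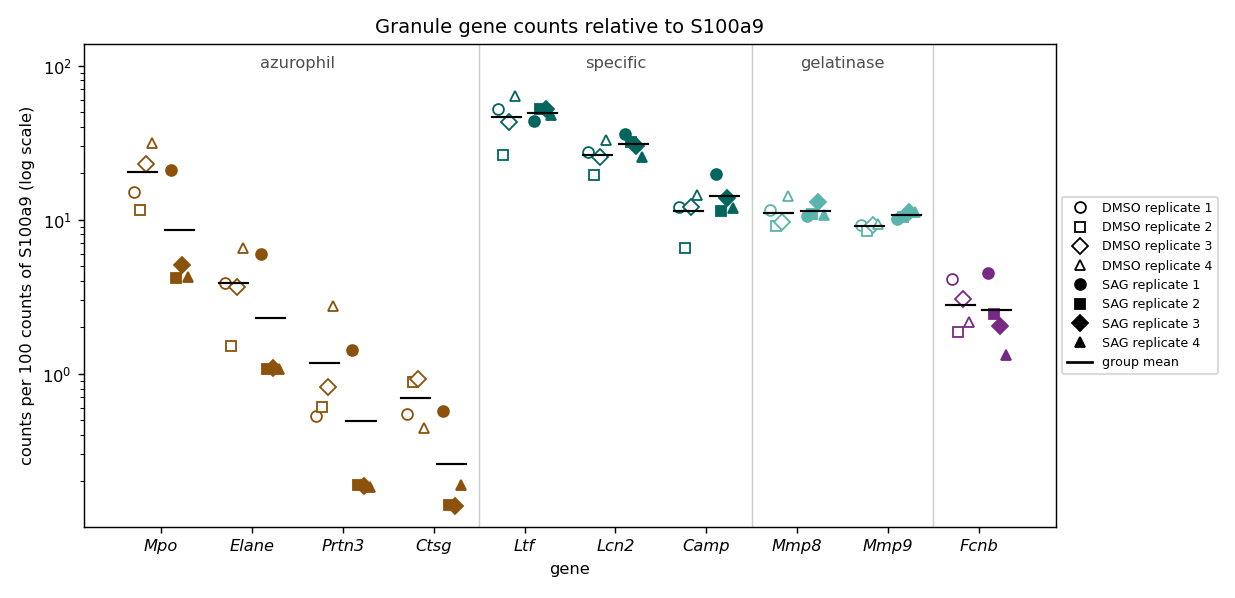
Counts of each granule gene per 100 counts of S100a9 in the same library (y axis, log scale) for the 8 libraries, with open symbols for DMSO, filled symbols for SAG, and a line at each group mean. The groups overlap in the specific genes, Mmp8, and Fcnb, and in Mmp9 all SAG libraries sit slightly above the DMSO libraries. In the azurophil genes SAG replicates 2 to 4 sit below all DMSO libraries while SAG replicate 1 sits among them.

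Per length of exon, which allows levels of different genes to be compared, the order by group mean in the DMSO libraries was Camp (390.0 ± 220.4 CPM per kb, SD, n = 4), Ltf (351.0 ± 212.6), Lcn2 (257.9 ± 132.3), Mpo (163.1 ± 119.2), Mmp8 (117.6 ± 61.5), Elane (108.7 ± 86.9), Mmp9 (64.1 ± 24.0), Fcnb (50.5 ± 18.2), Prtn3 (20.1 ± 23.5), and Ctsg (16.5 ± 7.35). This order is for the length of all exons of a gene, and with the mean transcript length 7 genes took another rank in DMSO and 8 in SAG. No neighbours in it were separated beyond the spread of the 4 libraries. In the SAG libraries Camp (1777 ± 173.3), Ltf (1432 ± 435.5), and Lcn2 (1158 ± 276.0) again led, followed by Mmp8 (461.5 ± 108.9) and Mmp9 (301.9 ± 81.4), which came before Mpo (215.5 ± 149.8) and Elane (197.9 ± 158.9). Fcnb (178.5 ± 67.4), Prtn3 (23.5 ± 23.7), and Ctsg (22.4 ± 12.4) came last in both groups. With SAG, Lcn2 and Mmp8 did not overlap and neither did Fcnb and Prtn3, and all other neighbours overlapped.

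After the group means were subtracted, the log2 CPM of the genes varied together over the 8 libraries. Pearson's r was between 0.54 and 0.96 for the 6 pairs of azurophil genes, with a median of 0.79, and between 0.27 and 0.97 for the 15 pairs among the other genes, with a median of 0.89. For the 24 pairs of an azurophil gene with another gene it was between −0.09 and 0.83, with a median of 0.46. These values are a description of libraries that share depth and cell makeup.

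By the same measure, the genes most like each class were sought among 9219 other genes with a mean of at least 10 CPM. For the azurophil class they were Gpr35 (r = 0.955), Atp5e (0.947), Akap12 (0.943), Cacna1e (0.942), and Ankrd52 (0.933). For the specific class they were Ppil4 (0.990), Itgb2l (0.987), Tmc6, Anxa1, and Prdx5 (0.982 each), and for the gelatinase class Ube2v1 (0.995), Mgst1 (0.991), Ppm1h (0.982), and Cap1 (0.978). For Fcnb they were BC017158 (0.964), Zfp628 (0.955), Ints1 (0.949), Prelid1 (0.945), and Mvb12b (0.934). In a search of 9219 genes over 8 libraries, high values of r can arise from the choice of the highest alone. What r such a search gives by chance was not determined. Over all tested genes 2.62% were higher and 0.266% were lower with SAG, and 6 of the genes named here were higher. They were Itgb2l (log2 fold change 2.21), an integrin of neutrophils, Anxa1 (1.76), Prdx5 (1.67), Mgst1 (1.65), Cap1 (1.42), and Mvb12b (1.30), and Akap12 was lower (−2.13).

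Other genes of the granules were described from lists that were written from textbook knowledge, in which Mmp25 also stood among the mature neutrophil markers and Cebpe and Gfi1 also stood among the precursor markers. The list counts from here on stand beside 2.62% of all tested genes higher and 0.266% lower in edgeR. Of 7 other specific granule genes 6 were higher with SAG and 0 were lower, with a median log2 fold change of 1.78. They were Ngp, which encodes neutrophilic granule protein (1741 CPM on average with DMSO and 7021 with SAG, log2 fold change 2.01), Chil3 (1.78), Hp, which encodes haptoglobin (1.51), Pglyrp1, a peptidoglycan recognition protein (1.78), Olfm4 (2.22), and Cd177 (2.05). Lyz2, the lysozyme of all granule classes, was 799.9 CPM on average with DMSO and 2319 with SAG (edgeR adjusted p = 0.0512, DESeq2 adjusted p = 0.00175). The summed level of the list was between 1569 and 5769 CPM with DMSO and between 9409 and 14720 CPM with SAG.

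Of 4 other azurophil genes 0 passed the test, with a median log2 fold change of 0.64. Srgn, the proteoglycan that packs proteases into granules, was between 165.5 and 313.6 CPM with DMSO and between 413.1 and 574.9 CPM with SAG (log2 fold change 0.88, edgeR adjusted p = 0.0574, DESeq2 adjusted p = 0.0101). Prss57, a serine protease, was 1.63, 17.4, 5.22, and 2.85 CPM with DMSO and 20.4, 36.1, 21.4, and 8.23 CPM with SAG (edgeR adjusted p = 0.263). Unlike Mpo and Elane it was not highest in SAG replicate 1. Ctsc, which activates the granule proteases, and Cd63 had log2 fold changes of 0.15 and 0.39. Bpi was not analysed here.

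Of 3 other gelatinase granule genes 1 was higher, Slc11a1, a metal transporter of the granule membrane (log2 fold change 1.33, edgeR adjusted p = 0.0237). Mmp25 and Adam8 had log2 fold changes of 1.53 and 1.08, and their call depended on the tool. The adjusted p was 0.138 and 0.0612 in edgeR and 0.0317 and 0.0094 in DESeq2. Of 5 genes of secretory vesicles, the last store to form, 3 were higher. They were Itgam (1.57) and Itgb2 (1.49), the chains of the integrin Mac-1, and Fpr1 (1.86), a receptor for formylated peptides. Cd14 (1.26) and Fcgr4 (1.17) did not pass in edgeR (adjusted p = 0.0543 and 0.134) and passed in DESeq2 (adjusted p = 0.00695 and 0.0478).

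The transcription factors of these genes gave 0 calls of 7 in either direction in edgeR, and their median log2 fold change was 0.57. Cebpe, which drives specific granule genes, was 34.4, 74.6, 75.9, and 106.6 CPM with DMSO and 146.9, 244.4, 112.0, and 154.0 CPM with SAG. Its groups did not overlap, and the call depended on the tool (log2 fold change 1.17, adjusted p = 0.0877 in edgeR and 0.0206 in DESeq2). Gfi1, a repressor active in early granulocytes, was 4.83, 12.01, 15.6, and 22.7 CPM with DMSO and 45.3, 28.0, 3.69, and 13.6 CPM with SAG. SAG replicate 1 was again the highest library. Cebpa, Cebpd, Myb, Spi1 (PU.1), and Runx1 had log2 fold changes between −0.06 and 0.93.

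Of 7 inhibitors of granule proteases 2 were higher and 0 were lower, with a median log2 fold change of −0.55. The 2 were Serpinb1a, an inhibitor of elastase and cathepsin G inside neutrophils (40.1 CPM on average with DMSO and 127.7 with SAG, log2 fold change 1.67, edgeR adjusted p = 0.0208), and Slpi, a secreted inhibitor of elastase (126.2 and 337.6 CPM, log2 fold change 1.42, edgeR adjusted p = 0.0167). The inhibitors of metalloproteinases Timp1, Timp2, and Timp3 had log2 fold changes of −0.68, 0.26, and −0.62, and A2m and Serpina3n of −0.83 and −0.55, none of which passed. Of 3 receptors of released granule proteins, Fpr2, which binds the cathelicidin peptide, was higher (12.8 CPM on average with DMSO and 56.8 with SAG, log2 fold change 2.15, edgeR adjusted p = 0.0416). Lrp1, which takes up lactoferrin and proteases, and Slc22a17, a receptor of lipocalin 2, had log2 fold changes of −0.78 and −1.01 and did not pass.

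Some granule genes are also expressed outside neutrophils, and markers of other cell types were counted beside them. Of 6 monocyte markers 1 was higher, Ly6c2 (log2 fold change 1.48), and the list had a median of −0.31. F13a1 (−1.03) had every SAG library below every DMSO library, as in 3.84% of all tested genes. Its adjusted p was 0.147 in edgeR and 0.0321 in DESeq2. Csf1r, Cx3cr1, Klf4, and Ccr2 had log2 fold changes of 0.17, −0.05, −0.58, and −0.69. The monocyte sum was between 1041 and 1734 CPM with DMSO and between 712 and 1061 CPM with SAG. The 6 macrophage markers summed to between 97.9 and 384.9 CPM and between 188.5 and 360.4 CPM, and the 6 eosinophil markers to between 3385 and 20020 CPM and between 4680 and 30130 CPM, with 0 calls in both lists. The 4 basophil and mast cell markers tested summed to between 0 and 72.5 CPM with DMSO, with all 4 at 0 in replicate 4, and between 6.01 and 30.4 CPM with SAG. The B lineage markers Cd79a and Pax5 were lower with SAG, with log2 fold changes of −2.67 and −3.61 (edgeR adjusted p = 0.0329 and 0.0102). The T and NK cell list (4 tested, between 8.62 and 35.4 CPM and between 10.2 and 30.9 CPM) and the erythroid list (6 tested, between 128.8 and 1680 CPM and between 97.2 and 1081 CPM) gave 0 calls. The 8 chondrocyte markers had a median log2 fold change of −1.03 with 0 calls in edgeR, and these calls depended on the tool. In DESeq2 Col2a1, Matn1, Matn3, Hapln1, and Col9a1 were lower (adjusted p between 0.00129 and 0.0257). Acan, Sox9, and Comp did not pass there (adjusted p between 0.0576 and 0.0932). In Matn1 and Matn3 every SAG library lay below every DMSO library, as it did in 3.84% of all tested genes. No gene of the whole table was at 0 in all 8 libraries, so this was set beforehand for every marker analysed. The part of these cell types in the values of the granule genes was not tested.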

How the data were processed

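Total RNA of sorted cells was prepared with the QIAGEN RNeasy Micro Kit and the Takara SMARTer Stranded Total RNA kit for picogram inputs. The values deposited by the authors are counts per gene and library without scaling. They are whole numbers and may be rounded estimated counts, since the submitters' processing notes name kallisto and DESeq2 with GRCm38 (versions and settings are not given in the sources used here), and kallisto estimates counts by sharing reads between similar transcripts. They were used as deposited. Samples were matched to 4 DMSO and 4 SAG libraries by their labels, and 0 libraries were left unmatched. All 16536 genes were found in GENCODE M21 (GRCm38), which gave identifiers, coordinates, and exon lengths.

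The groups were compared in edgeR 4.0.16 (R 4.3.3) after filterByExpr and TMM scaling. P-values of its quasi-likelihood test (robust setting) were adjusted by Benjamini-Hochberg over the 15421 genes kept, and the threshold was 0.05. Log2 CPM used a prior count of 2. Ratios of counts used a pseudocount of 0.5 and exact permutation tests over 70 relabellings (Python 3.11.15). The common dispersion, a measure of the spread between mice, was 0.466. Simulated counts with known changes were used to test the scripts. DESeq2 1.42.0, limma 3.58.1 voom, other scalings and filters, a replicate block, and each mouse left out in turn were tried as alternatives.

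The genes named are the 10 granule genes, the members of the lists, and the 5 genes most like each class. A gene most like the gelatinase class and the B lineage list as a whole are not reported here. The members and lists were chosen with earlier results of these data known. The labels do not say that replicate numbers pair the mice. The correlation of same-numbered libraries, after group means were subtracted, was 0.12, 0.022, 0.019, and 0.01 for numbers 1 to 4. No pair of replicates agreed within counting noise. Each printed promoter stretch was limited to bases around a match outside annotated exons, and the match in Lcn2, which lies in an annotated exon, is not printed. Listed genes not analysed here are Bpi, Fcer1a, Cma1, Dcstamp, Calcr, and Ncr1, and Vpreb1 and Trac were below the filter on low counts.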

Additional observations from a re-analysis of the deposited data

Results flagged for a closer look

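In groups of 4 libraries, the highest or lowest value was compared with its nearest neighbour by Dixon's ratio (gap over range). Of 32 combinations of a measure and a group, 5 passed, where chance gives about 1.6 (5% each), and all 5 were SAG replicate 1. Mpo was at 1504 CPM in that library, where the next SAG library was at 534.4 CPM (ratio 0.899). Elane was at 427.5 CPM with the next at 136.6 CPM (0.864), and Prtn3 at 102.1 CPM with the next at 23.9 CPM (0.903). The log2 ratio of Ltf to Mpo counts was 1.07 in SAG replicate 1 and at least 3.37 in the others (0.896), and that of Mmp9 to Mpo was −1.05 and at least 1.13 (0.886). The 5 values share the Mpo counts or the azurophil class and are not independent. The cause was not tested.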

How the results depend on the processing

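Of the 160 fold changes of granule genes under alternatives, 140 kept their direction and their side of the threshold, 15 kept their direction and no longer passed, and 5 turned. The number of granule genes higher was 6 with DESeq2, limma voom, other scalings, other filters, and without DMSO replicate 4 and SAG replicate 1 together (an alternative chosen after the data were seen), and between 1 and 6 with single mice left out. The log2 fold change with single mice left out was between −0.21 and 0.97 for Mpo, 0.13 and 1.56 for Elane, −0.78 and 1.49 for Prtn3, 0.01 and 0.76 for Ctsg, 1.76 and 2.51 for Ltf, 1.95 and 2.56 for Lcn2, 1.93 and 2.59 for Camp, 1.78 and 2.40 for Mmp8, 2.09 and 2.48 for Mmp9, and 1.6 and 1.99 for Fcnb. It turned for Mpo without SAG replicate 1 (−0.21), for Prtn3 without DMSO replicate 1 (−0.09), DMSO replicate 2 (−0.07), or SAG replicate 1 (−0.78), and for Ctsg without DMSO replicate 4 and SAG replicate 1 (−0.01). None of these 3 genes passed the test in any fit.

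Over all genes, 404 were higher and 41 lower. The numbers were 797 and 390 with DESeq2, 995 and 398 with limma voom, and 1102 and 514 without DMSO replicate 4 and SAG replicate 1, and 87 were lower with at least 10 counts in every library. With single mice left out, between 80 and 1017 were higher and between 4 and 343 lower, with both maxima without DMSO replicate 4. The difference in the log2 ratio of Ltf to Mmp9 was 0.11 with Camp in place of Ltf, 0.08 without DMSO replicate 4, and 0.10 when SAG replicate 1 was also left out, and between −0.30 and 0.08 with single mice left out. That of Ltf to Mpo was between 1.43 and 2.28 and that of Mmp9 to Mpo between 1.52 and 2.34, with exact permutation p between 0.0571 and 0.171. They were 1.41 with Camp and Elane in place of Ltf and Mpo (exact permutation p = 0.0571) and 1.30 with Elane in place of Mpo (p = 0.114). With the mean transcript length in place of all exons, 7 genes in DMSO and 8 in SAG took another rank. The 50 alternatives for class means moved each difference by less than the SD pooled over both groups, and with single mice left out the differences were between 0.13 and 0.98 for the azurophil class, 1.94 and 2.61 for the specific class, 1.98 and 2.43 for the gelatinase class, and 1.52 and 2.02 for Fcnb. The cause of these changes was not tested.

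With the replicate number as a block, which the labels do not tie to a shared litter or day, 5 granule genes were higher. The log2 fold change of Fcnb was 1.82 with an edgeR adjusted p of 0.0565, and over all genes 334 were higher and 18 lower. The block changed no other call among the granule genes. Genes under 3 counts, or 0.0644 to 0.12 CPM, could not be told from 0.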
